A study of Homo sapiens with 12 samples.

Results

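The hairpin described here is the precursor of miR-342, encoded by MIR342 inside the gene EVL. Its members are its mature microRNAs (miRNAs), hsa-miR-342-3p from the 3′ arm and hsa-miR-342-5p from the 5′ arm (human, hence hsa, left out below), which make up 2 of the 2588 mature miRNAs in the count table. They were taken by name, and the hairpin had been picked because it was higher after Tudor-SN siRNA in both sequencing runs while its level differed widely between the runs. Those values are therefore given as a description, without a test.

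miRNAs were counted by small RNA sequencing in 12 libraries of HEK293T cells, human embryonic kidney cells that express the large T antigen of SV40. The cells, grown in medium with 10% fetal bovine serum, received Tudor-SN siRNA or control siRNA by transient transfection, to find miRNAs that Tudor-SN degrades. The 4 groups had 3 libraries each: Tudor-SN siRNA in run 2, control siRNA in run 2, Tudor-SN siRNA in run 1 and control siRNA in run 1. Run 2 started from total RNA, with libraries size-selected on a Pippin Prep and read on a HiSeq with 50-nt single-end reads. Run 1 started from an RNA fraction enriched below 200 nt, with libraries purified from polyacrylamide and read on a NextSeq. These steps differ together between the runs and cannot be told apart. Nothing in the labels gives the siRNA sequences, the doses or the time after transfection, and Tudor-SN mRNA was not measured by this assay. The labels do not say that the 3 libraries of a group came from separate cultures, so errors and p-values measure only the spread between libraries.

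A miRNA hairpin is cut from its primary transcript in the nucleus by Drosha, and its loop is removed in the cytoplasm by Dicer. One strand of the resulting duplex is kept by an Argonaute protein as the guide, and its seed (bases 2 to 8) pairs with target mRNAs, while the other strand is usually lost. EVL encodes an actin regulator of the Ena/VASP family, and miR-342 is best known from blood cells and as a hairpin silenced together with its host gene in colorectal cancer. Tudor-SN, encoded by SND1, is a staphylococcal-like nuclease with a Tudor domain that cuts miRNAs at CA and UA dinucleotides.

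The mature sequences follow because the seeds define what each arm can target and because CA and UA are the dinucleotides that Tudor-SN is known to cut. They are RefSeq sequences on GRCh38.p14, with the seed in capitals in the first pair of lines and CA and UA in capitals in the second pair.
miR-342-3p: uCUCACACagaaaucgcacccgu
miR-342-5p: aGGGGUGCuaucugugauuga
miR-342-3p: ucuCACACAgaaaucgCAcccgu
miR-342-5p: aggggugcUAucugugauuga
miR-342-3p is 23 bases long with a GC content of 52.2%. It lies at chr14:100109715-100109737 on the plus strand and holds 4 CA dinucleotides, which start at bases 4, 6, 8 and 17, and no UA. miR-342-5p is 21 bases long with a GC content of 47.6%. It lies at chr14:100109673-100109693 on the plus strand and holds 1 UA, at base 9, and no CA. Of the 2370 mature sequences searched, no other had either seed at bases 2 to 8. A RefSeq mature sequence was at hand for 2281 of the 2588 miRNAs in the count table, and the rest were not searched.

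The hairpin itself, MIR342, spans 99 bases at chr14:100109655-100109753 on the plus strand, and is shown with both mature arms in capitals to place them on one stem.
MIR342: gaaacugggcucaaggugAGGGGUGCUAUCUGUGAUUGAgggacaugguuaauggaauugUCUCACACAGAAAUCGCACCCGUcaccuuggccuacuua
The minimum free energy structure computed from it had 34 base pairs and -47.7 kcal/mol, and 21 bases lay between the arms. In that structure 18 of the 23 bases of miR-342-3p and 16 of the 21 bases of miR-342-5p were paired. Strand choice is known to favour the strand with the less stable 5′ end and a 5′ U or A. Over the first 4 bases, miR-342-3p began with U and had 2 GC pairs, 1 AU pair and 1 GU pair, and miR-342-5p began with A and had 2 GC pairs, 1 AU pair and 1 unpaired base.

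In the GENCODE release 29 annotation, EVL spans chr14:99971449-100144236 on the plus strand. MIR342 lies on the same strand in the intron between exons 3 and 4 of the principal transcript EVL-201. That intron is 25880 bases long, and the hairpin starts 11996 bases after exon 3 and ends 13785 bases before exon 4. An intron of 8 EVL transcripts held the hairpin, and 0 EVL exons overlapped it.

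The data of this hairpin are almost entirely those of its 3p arm. miR-342-3p was counted in all 12 libraries. Its counts in libraries 1 to 3 were 172, 160 and 101 with Tudor-SN siRNA and 33, 58 and 32 with control siRNA in run 2. They were 1438, 1159 and 835 with Tudor-SN siRNA and 175, 190 and 106 with control siRNA in run 1. The totals over all mature miRNAs behind these counts were 927727 to 3140214 in run 2 and 222452 to 1092713 in run 1. The mean total with Tudor-SN siRNA was 2.08 times that with control siRNA in run 2 and 3.45 times in run 1, so depth moved with the siRNA, and its part in the result was not tested. Levels are in CPM, the count per 1000000 counts of its library. A count of 0 in a library allows up to 3 counts, or 0.955 to 3.23 CPM for run 2 libraries and 2.75 to 13.5 CPM for those of run 1. All of these limits, like the Poisson intervals, cover counting error only, since PCR copies are not independent molecules.

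miR-342-3p stood at 54.8, 56.4 and 59.0 CPM in the 3 Tudor-SN libraries of run 2, against 35.6, 35.1 and 28.7 CPM in the 3 control libraries. Each Tudor-SN library was above each control library, the lowest being 1.54 times the highest control. The mean was 56.7 ± 2.16 CPM with Tudor-SN siRNA and 33.1 ± 3.84 CPM with control siRNA (SD, n = 3 each), a ratio of 1.71. In bulk RNA, a change in the number of cells that hold a miRNA and a change in its amount per cell cannot be told apart.

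In run 1, miR-342-3p stood at 1316, 1455 and 1268 CPM in the Tudor-SN libraries, against 711, 703 and 477 CPM in the control libraries. Again the groups did not overlap, and the lowest Tudor-SN library was 1.78 times the highest control. The mean was 1346 ± 97.2 CPM with Tudor-SN siRNA and 630 ± 133 CPM with control siRNA (SD, n = 3 each), a ratio of 2.14. The controls of run 1 were the most spread group, with a coefficient of variation of 21.1%, and library 3 was the lowest. The Poisson 95% interval of library 3, 390 to 576 CPM, did not reach those of the other controls, which began at 607 CPM.

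**Figure D1:**
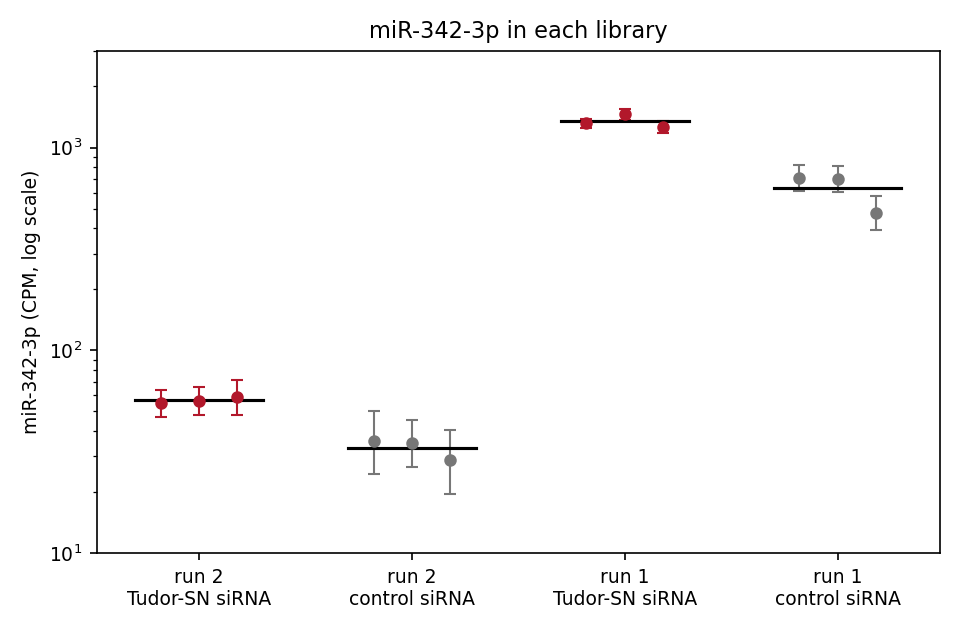
Level of miR-342-3p in each library, in CPM on a log scale. Points are libraries, vertical bars are Poisson 95% intervals and horizontal lines are group means of 3 libraries. The Tudor-SN libraries of run 2 sit at 54.8 to 59.0 CPM above controls at 28.7 to 35.6 CPM, and those of run 1 at 1268 to 1455 CPM above controls at 477 to 711 CPM.

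Scaled by TMM and fitted over all tested miRNAs, the log2 fold change of miR-342-3p, Tudor-SN over control siRNA, was 0.66 in run 2 (SE 0.16), or 1.58-fold. In run 1 it was 1.07 (SE 0.13), or 2.10-fold. By rank this was the 45th highest of 383 log2 fold changes tested in run 2 and the 13th highest of 224 in run 1. The middle of all tested miRNAs lay at -0.02 in run 2, with 5% below -1.17 and 5% above 0.92. In run 1 it lay at -0.05, with 5% below -1.84 and 5% above 1.09. miR-342-3p thus lay toward the upper end in both runs and inside the highest 5% in neither.

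miR-342-3p passed the threshold of 0.05 on the adjusted p in both runs, 1 of the 2 members, and miR-342-5p was too low to be tested. In run 2, 24% of the 383 tested miRNAs passed as higher after Tudor-SN siRNA, and 27.9% had every Tudor-SN library above every control library. In run 1 these shares were 21.4% and 22.8% of 224. As the hairpin was picked for its rise in these same contrasts, nothing is read from its own calls. In the authors' deposited table the log2 fold change of miR-342-3p was 0.73 in run 2 and 1.19 in run 1.

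**Figure D2:**
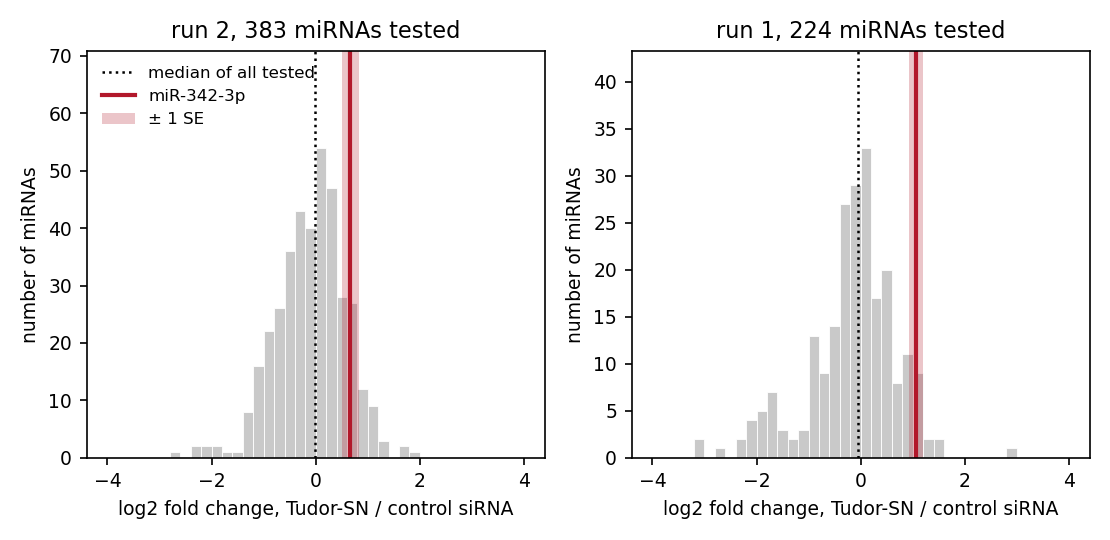
Distribution of log2 fold changes, Tudor-SN over control siRNA, over the 383 miRNAs tested in run 2 (left) and the 224 tested in run 1 (right). Bars count miRNAs, the dotted line is the median of all, and the red line with its band is miR-342-3p with ± 1 SE, at 0.66 in run 2 and 1.07 in run 1.

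The level of miR-342-3p differed far more between runs than between siRNAs. Its rank by count among all mature miRNAs of a library was 169 to 181 with Tudor-SN siRNA and 207 to 227 with control siRNA in run 2. In run 1 its rank was 38 in each of the 3 Tudor-SN libraries and 49 to 60 in the controls. The mean CPM of run 2 was 23.7-fold lower than that of run 1 with Tudor-SN siRNA and 19.03-fold lower with control siRNA, and the highest library of run 2 lay far below the lowest of run 1. With TMM scaling, the log2 fold change of run 2 over run 1 was -5.24 (SE 0.13) in Tudor-SN libraries and -4.74 (SE 0.18) in control libraries, which is 37.8-fold and 26.7-fold lower in run 2. The median over all tested miRNAs was 0.34 and 0.18 in the same fits. Of the members, miR-342-3p was called lower in run 2 in both fits, beside 35.8% of 369 miRNAs lower in run 2 in Tudor-SN libraries and 35.4% of 302 in control libraries. Every run 2 library lay below every run 1 library for 35.5% and 36.1% of them, and nothing is read from this, since the levels per run were part of the choice.

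The gap is set beside those of other abundant miRNAs as a description, since both the choice of the hairpin and the choice of miRNAs at or above its level in run 1 favour low ratios of run 2 over run 1. In the controls of run 1, 53 miRNAs had a mean CPM at least as high as miR-342-3p, itself included, and their median ratio of run 2 over run 1 was 0.626. Of these 53, 7 had a ratio of 0.1 or less and 2 a ratio of 10 or more. The 6 with the lowest ratios had mean CPM in run 2 that was 143-fold lower for miR-221-5p, 71.8-fold for miR-4454, 39.1-fold for miR-99a-5p, 33.3-fold for miR-183-5p, 20.9-fold for miR-1246 and 19.03-fold for miR-342-3p. miR-4454 and miR-1246 are entries known to overlap fragments of other noncoding RNA. CPM compares one miRNA between libraries only. Each read covers a whole mature miRNA, so counts were not divided by length, and ligation of adapters depends on sequence, so levels of different miRNAs are not compared as amounts. One abundant miRNA also weighs on CPM: miR-10a-5p took 24.4 to 27.2% of counts with Tudor-SN siRNA and 34.3 to 36.1% with control siRNA in run 2. Its share in run 1 was 48.1 to 48.8% and 55.8 to 57.5% with Tudor-SN and control siRNA. Without miR-10a-5p in the library size, and with no TMM scaling, the log2 fold change of miR-342-3p was 0.57 in run 2 and 0.85 in run 1. With the whole library size and no TMM scaling it was 0.77 in run 2 and 1.09 in run 1.

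**Figure D3:**
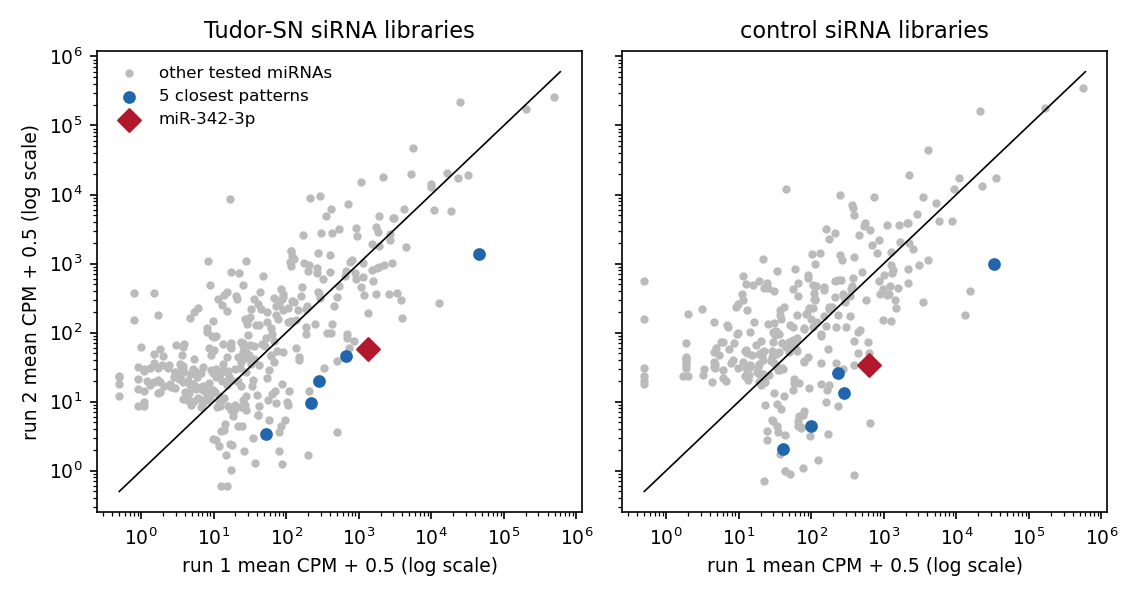
Mean CPM plus 0.5 in run 2 (vertical, log scale) against run 1 (horizontal, log scale) for Tudor-SN libraries (left) and control libraries (right), each point 1 tested miRNA and the line equality. miR-342-3p, the diamond, lies below the line at 56.7 CPM in run 2 and 1346 CPM in run 1 with Tudor-SN siRNA, and at 33.1 and 630 CPM with control siRNA; circles in blue are the 5 miRNAs with the closest patterns.

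Whether the siRNA difference itself changed with the run was described by the interaction in the fit over 12 libraries. The log2 fold change of miR-342-3p was 0.36 lower in run 2 than in run 1 (interaction -0.36, SE 0.21), and the median of all 378 miRNAs in that fit was 0.19. Relative to that median, which moved with the scaling, the value was -0.55, and it ranged from -0.62 to -0.39 over the alternatives, those that leave out a library included. miR-342-3p was not among the 34 miRNAs, 8.99%, called for the interaction. The call depended on which libraries were in the fit: with any 1 of the 6 run 1 libraries left out, the interaction was -0.88 to -0.64 and was called. In those fits the median of all tested also moved below 0, and the value relative to it was -0.58 to -0.39. With any 1 of the 6 run 2 libraries left out, or under the 8 other alternatives, the interaction was not called. As the hairpin was picked with both siRNA differences known, nothing is read from either outcome.

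miR-342-5p was at the edge of detection. Its counts in run 2 were 4, 0 and 1 in the Tudor-SN libraries and 0 in each of the 3 control libraries, and in run 1 they were 0 in all 6 libraries. The 5 counts among 7689887 in the Tudor-SN libraries of run 2 make 0.650 CPM (Poisson 95% interval 0.211 to 1.52). A count of 0 over the pooled group allows up to 0.812 CPM in the run 2 controls, 1.18 CPM in the run 1 Tudor-SN libraries and 4.06 CPM in the run 1 controls. Differences in miR-342-5p between siRNAs or runs that stay within these limits were therefore not detectable at this depth.

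Within a library the balance of the arms needs no scaling, since both come from 1 hairpin. miR-342-5p made up 5 of 438 hairpin counts in the Tudor-SN libraries of run 2, or 1.14% (exact 95% interval 0.372 to 2.64%). It made up 0 of 123 in the run 2 controls, which allows a share of up to 2.44%. In run 1 it made up 0 of 3432 with Tudor-SN siRNA, allowing up to 0.0874%, and 0 of 471 with control siRNA, allowing up to 0.637%. In counts, miR-342-3p was 86.6 times miR-342-5p in the Tudor-SN libraries of run 2. Against the 3-count limit over the group it was at least 41-fold higher in the run 2 controls, at least 1144-fold higher in the run 1 Tudor-SN libraries and at least 157-fold higher in the run 1 controls. The share in the Tudor-SN libraries of run 2 rests on library 1, which holds 4 of the 5 counts: without it, miR-342-5p made up 1 of 262 counts, or 0.382% (exact 95% interval 0.00966 to 2.11%), an interval that reaches the limit of the run 1 Tudor-SN libraries.

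Many hairpins were one-sided too. Of the 838 hairpins with both arms in the table, 178 had at least 100 counts summed over arms and libraries in the Tudor-SN libraries of run 2, 142 in its controls, 112 in the Tudor-SN libraries of run 1 and 79 in its controls. The 3p arm was the larger in 79 of the 178, 65 of the 142, 51 of the 112 and 32 of the 79. The median share of the smaller arm was 1.98% and 2.13% in run 2 with Tudor-SN and control siRNA, and 1.02% and 1.09% in run 1. In the Tudor-SN libraries of run 2, 77 of 178 hairpins were at least as one-sided as miR-342. In the other 3 groups the smaller arm had 0 counts in 21 of 142 hairpins in the run 2 controls, 24 of 112 in the run 1 Tudor-SN libraries and 21 of 79 in the run 1 controls, miR-342 among them.

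**Figure D4:**
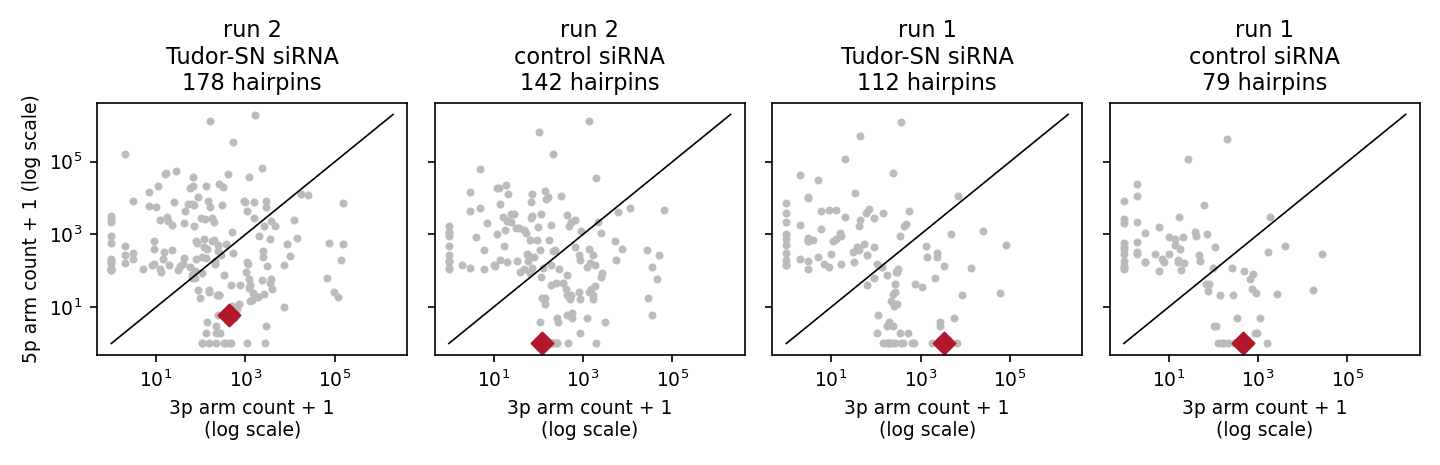
Summed counts plus 1 of the 5p arm (vertical, log scale) and 3p arm (horizontal, log scale) in each group of 3 libraries, 1 point per hairpin with at least 100 counts, the line marking equal arms. miR-342, the diamond, has 5 counts of its 5p arm in the Tudor-SN libraries of run 2, where 18 of 178 hairpins have fewer, and lies on the lower edge, at 0 counts, in the other 3 groups.

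CA and UA dinucleotides are common in miRNAs. Of the 408 miRNAs tested in either run, 362 had a RefSeq mature sequence. Their median was 2 CA or UA (range 0 to 7), 90.6% had at least 1, and 22.9% had 4 or more, as miR-342-3p has. The mature strand alone was searched, since the RNA is single-stranded. After the split at the 4 of miR-342-3p, chosen once its number was known, 24 of 82 miRNAs with 4 or more rose in run 2 and 14 fell, with a median log2 fold change of 0.11. Of the 259 with 3 or fewer, 59 rose and 76 fell, with a median of -0.07. In run 1, 15 of 57 rose and 10 fell among those with 4 or more, with a median of 0.12, and 29 of 141 rose and 32 fell among the rest, with a median of -0.10. Over all with a sequence, 83 of 341 rose and 90 fell in run 2, with a median of -0.01. In run 1, 44 of 198 rose and 42 fell, with a median of -0.05. miR-342-3p, picked for its rise, is itself counted among those with 4 or more that rose in both runs. The difference between the groups was not tested.

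Other annotated hairpins on chromosome 14, chosen by name, were set beside MIR342, and whether others lie nearer was not searched. MIR151B lies 140 bases away on the minus strand. miR-151b had counts of 12, 9 and 7 in the Tudor-SN libraries and 1, 2 and 2 in the control libraries of run 2. In run 1 it had 0 in each Tudor-SN library and 0, 1 and 0 in the controls. It is nearly identical to miR-151a-5p, so its counts are uncertain. miR-345-5p comes from MIR345, 198105 bases away on the plus strand. Its level was 1081 ± 93.5 CPM with Tudor-SN siRNA and 1174 ± 51.4 CPM with control siRNA in run 2, and 27.8 ± 7.69 and 21.3 ± 6.77 CPM in run 1 (SD, n = 3 each). Its log2 fold change of -0.23 in run 2 passed the threshold (SE 0.06, adjusted p = 0.00486, edgeR quasi-likelihood test), and did not pass with library size alone (-0.12) or upper-quartile scaling (-0.14). In run 1 the value was 0.37 (SE 0.48), with an adjusted p = 0.582 by the same edgeR test. miR-345-5p was thus higher in run 2 than in run 1 with a log2 fold change of 4.55 in Tudor-SN and 5.26 in control libraries, where miR-342-3p was lower. Of the 65 listed miRNAs of 14q32, 47 had 0 counts in all 12 libraries, and miR-345-5p was the 1 member tested.

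Other miRNAs in introns of protein-coding genes were taken from a list chosen by name, with earlier results of these data known. It holds both arms of some hairpins and miRNAs of the same cluster, so its entries are not independent. On this list more passed as higher than as lower after Tudor-SN siRNA. That is a description only, since the choice of the list may favour it. The shares of all tested were 24% higher and 26.9% lower in run 2, and 21.4% and 22.8% in run 1. Of the 75 listed miRNAs other than miR-342, 57 were tested in run 2: 26 rose, 8 fell and 23 did not pass. Their median log2 fold change was 0.24, beside -0.02 for all tested. In run 1, 43 were tested: 16 rose, 6 fell and 21 did not pass, with a median of 0.33 beside -0.05 for all. That surplus depended on the scaling in run 1, where upper-quartile scaling called 12 higher and 9 lower and library sizes without miR-10a-5p called 12 and 12, while the list's median lay 0.38 above that of all tested under both. With no filter on low counts it lay 0.11 above. In run 2, library sizes without miR-10a-5p called 20 of the list higher and 11 lower, and library size alone called 27 and 6. A larger log2 fold change than that of miR-342-3p was seen for 15 of the 57 in run 2 and 6 of the 43 in run 1. miR-126-3p from EGFL7, miR-362-5p, miR-455-5p and miR-708-5p were among them in both runs. In run 2 miR-362-5p, at 0.663 (SE 0.26), was nearly equal to miR-342-3p, at 0.662 (SE 0.16).

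The most abundant members of this list differed among themselves. miR-378a-3p, hosted by PPARGC1B, which encodes a coactivator of mitochondrial genes, averaged 19660 ± 1006 CPM with Tudor-SN siRNA and 9274 ± 559 CPM with control siRNA in run 2, a log2 fold change of 0.98 (SE 0.05). In run 1 it averaged 5280 ± 104 and 3520 ± 46.3 CPM with Tudor-SN and control siRNA, a log2 fold change of 0.56 (SE 0.10), and it passed in both runs. miR-25-3p, hosted by the replication helicase gene MCM7, rose in run 2 by 0.25 (SE 0.05) on the log2 scale and had a value of 0.03 (SE 0.08) in run 1, which did not pass. miR-191-5p, hosted by DALRD3, rose in run 1 by 0.42 (SE 0.10) and had a value of -0.01 (SE 0.06) in run 2, which did not pass; with upper-quartile scaling the run 1 value, 0.22, did not pass either. miR-186-5p, hosted by ZRANB2, rose by 0.15 (SE 0.05) in run 2, a call lost at 0.06 without miR-10a-5p in the library size, and miR-501-3p, hosted by the chloride channel gene CLCN5, rose by 1.17 (SE 0.11) in run 1. In run 2 over run 1, 22 of 59 were higher and 26 lower in Tudor-SN libraries, beside 45.3% higher and 35.8% lower of all tested. In control libraries 16 of 50 were higher and 22 lower, beside 44.7% higher and 35.4% lower of all. The interaction called 3 of 58 higher and 4 lower, beside 5.56% higher and 3.44% lower of all.

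Since miR-342 is known from blood cells, markers of other cell types were counted beside it. Of 9 blood-cell markers, miR-223-3p, miR-142-3p, miR-150-5p, miR-155-5p and miR-144-3p had 0 counts in all 12 libraries, miR-142-5p had 2 and miR-451a had 1 in all. The other two, miR-146a-5p and miR-146b-5p, are also made outside blood and had 220 and 247 counts. The summed blood-cell markers ranged over 14.03 to 19.4 CPM with Tudor-SN siRNA and 15.2 to 19.4 CPM with control siRNA in run 2. In run 1 they ranged over 73.2 to 100.4 CPM with Tudor-SN siRNA and 71.9 to 93.4 CPM with control siRNA. None of the markers tested passed in either run: miR-146a-5p had a log2 fold change of -0.11 (SE 0.29) in run 2 and 0.87 (SE 0.54) in run 1, and miR-146b-5p had -0.26 (SE 0.30) in run 1.

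Of 8 markers of muscle, liver and neural tissue, miR-206 and miR-208b-3p had 0 counts in all, and miR-122-5p, the liver miRNA, had 1. miR-499a-5p had 2 and miR-124-3p had 7. For miR-133a-3p, a muscle marker, counts of 23, 11 and 16 were found with Tudor-SN siRNA in run 2, against 0, 0 and 1 in the run 2 controls. Its counts in run 1 were 0, 1 and 0 in the Tudor-SN libraries and 0 in each control, and miR-133a-3p did not pass the count filter in either run. The neural marker miR-9-5p was present in every library, with 15171 counts in all. It had a log2 fold change of -0.01 (SE 0.07) in run 2, which did not pass, and rose in run 1 by 0.37 (SE 0.12), a call lost at 0.18 with upper-quartile scaling. The muscle marker miR-1-3p rose in run 1 by 2.98 (SE 0.42), at 105, 71 and 51 counts in the Tudor-SN libraries and 5, 2 and 1 in the control libraries. In run 2 it had 2, 3 and 1 counts in the Tudor-SN libraries and 1, 0 and 0 in the control libraries. The part of both muscle markers in the difference of miR-342-3p was not tested.

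The 5 miRNAs with the pattern most like that of miR-342-3p were found by the root mean square distance between log2 levels, each centred on its own mean over the 12 libraries, among 378 miRNAs kept by the count filter. The median distance over all was 2.79, against 0.36 for miR-500a-5p, 0.37 for miR-9-3p, 0.45 for miR-183-5p, 0.47 for miR-23a-3p and 0.50 for miR-362-5p. Their Pearson correlations with miR-342-3p over 12 libraries were 0.982 to 0.991. The libraries share 2 runs that stand far apart, so these values describe mainly the gap between runs. The sequences of the 5 are shown to compare their seeds (bases 2 to 8, in capitals) with that of miR-342-3p, and none has the same seed.
miR-500a-5p: uAAUCCUUgcuaccugggugaga
miR-9-3p: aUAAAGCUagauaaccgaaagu
miR-183-5p: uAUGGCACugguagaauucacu
miR-23a-3p: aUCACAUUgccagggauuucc
miR-362-5p: aAUCCUUGgaaccuaggugugagu
miR-500a-5p and miR-362-5p lie close together on chromosome X, at chrX:50008443-50008465 and chrX:50008968-50008991 on the same build.

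These 5 did not all follow miR-342-3p in the siRNA difference. miR-362-5p had log2 fold changes of 0.66 (SE 0.26) in run 2 and 1.47 (SE 0.16) in run 1, at 44.8 ± 15.9 and 25.2 ± 3.22 CPM with Tudor-SN and control siRNA in run 2, and 660 ± 69.0 and 232 ± 43.5 CPM in run 1. miR-9-3p had 1.04 (SE 0.36) in run 2 and 1.17 (SE 0.21) in run 1. miR-183-5p, the most abundant of them, had 0.38 (SE 0.06) in run 2 and 0.43 (SE 0.07) in run 1. miR-23a-3p had 0.54 (SE 0.26) in run 2 and -0.05 (SE 0.17) in run 1. miR-500a-5p, with 1 to 60 counts per library, had 0.33 (SE 0.35) in run 1 and was too low to be tested in run 2.

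**Figure D5:**
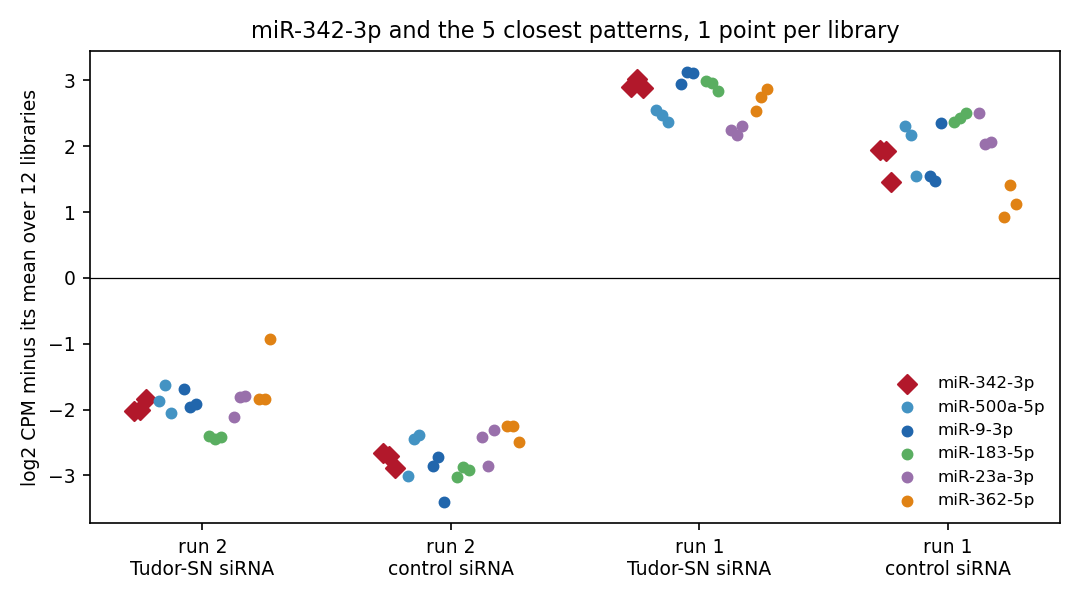
Log2 CPM (TMM-scaled) minus each miRNA's mean over 12 libraries, 1 point per library, for miR-342-3p (diamonds) and the 5 miRNAs with the closest patterns. All 6 lie below 0 in each library of run 2 and above 0 in each library of run 1.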

How the data were processed

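Counts per mature miRNA, as the authors deposited them, were whole numbers and served for every test. The authors also deposited a normalized signal and RPM values. As a check, the RPM values were summed per library, which gave 999768 to 1000466. The normalized signal was not used and was not compared with the counts. The authors' deposited log2 fold changes and adjusted p-values were read from their own comparison, per the file headers. Of tools, the submitters' processing notes list Bowtie2 in both runs and, in run 2 alone, cutadapt, DESeq and DESeq2. Their settings, the genome build, the annotation and how multiply matching reads were assigned are not given in the sources. Both runs used 12 cycles of PCR, per the labels' protocols.

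Counts were fitted with edgeR 4.0.16 (limma 3.58.1, R 4.3.3) by its quasi-likelihood F test, two-sided, with TMM scaling and filterByExpr (minimum count 10, minimum total 15). P-values were adjusted by Benjamini-Hochberg over all miRNAs tested, at a threshold of 0.05. The SE of a log2 fold change was derived from the test, as its absolute value divided by the square root of F. For miR-342-3p this gave 0.16 in run 2 and 0.13 in run 1, where DESeq2 gave an SE of 0.22 and 0.14. Each run was fitted alone, the runs were compared within each siRNA, and the interaction was fitted over 12 libraries. The fits were tested on simulated counts with the same dispersion for every miRNA. As real counts differ from that, their error in these data was not measured. CPM in the text is the count over the library total. Log2 profiles used a prior count of 0.5. Sequences came from RefSeq tables of GRCh38.p14, and the fold from ViennaRNA 2.7.2. The members, lists and tests were chosen with earlier results of these data known. The miRNAs named are both members, the 5 closest patterns, the 4 most abundant tested members of each list per run, and the neighbours miR-151b and miR-345-5p; others were chosen after their values were seen. Alternatives were other scalings, no filter, DESeq2 1.42.0, a replicate block and each library left out.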

Additional observations from a re-analysis of the deposited data

How the results depend on the processing

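The log2 fold change of miR-342-3p, Tudor-SN over control siRNA, kept its direction under all 13 alternatives in each run, at 0.57 to 0.79 in run 2 and 0.85 to 1.26 in run 1. With a library left out it was 0.60 to 0.72 in run 2 and 0.93 to 1.15 in run 1. Library sizes without miR-10a-5p, chosen after seeing the data and used without TMM scaling, gave 0.57 in run 2 and 0.85 in run 1. The log2 fold change of run 2 over run 1 stayed negative: with library size alone it was -4.57 in Tudor-SN and -4.245 in control libraries, and with no filter -4.96 and -4.23. The interaction of miR-342-3p was -0.61 with RLE scaling and -0.61 with DESeq2, and -0.88 to -0.16 with a library left out; it was called with any 1 of the 6 run 1 libraries left out. The count of miRNAs called for the interaction was 34, and 23 to 74 with a library left out, the highest without library 3 of the Tudor-SN group of either run. Of these 34, 21 were higher and 13 lower; RLE scaling gave 10 and 34, DESeq2 10 and 29, upper-quartile scaling 14 and 20, TMM within each run 13 and 31, and library sizes without miR-10a-5p 30 and 11. In run 1, 48 rose and 51 fell (median of all -0.05); upper-quartile scaling gave 33 and 69 (median -0.24) and library sizes without miR-10a-5p 34 and 77 (median -0.26). In run 2, 92 rose and 103 fell; library size alone gave 103 and 78, and library sizes without miR-10a-5p 73 and 119. In Tudor-SN libraries, 167 were higher and 132 lower in run 2, and with library size alone 223 and 105. The cause was not tested. The 5p share in the run 2 Tudor-SN libraries, 1.14%, was 0.382 to 1.80% with a library left out. Deviations of same-numbered libraries from their group means had correlations of -0.023 to 0.166 over 378 miRNAs, the highest for libraries 2 of run 1. Whether such libraries share a culture or batch cannot be told from these values, which rest on groups of 3 and include counting error. A replicate block gave 0.66 with 198 calls in run 2, 1.08 with 108 calls in run 1, and 51 interaction calls. Depth limits miR-342-5p, which had 5 counts in all.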
